A study of Homo sapiens with 12 samples.

Results

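The S100 genes encode small calcium-binding proteins, and 10 of them are described here: S100A2, S100A4, S100A6, S100A8, S100A9, S100A10, S100A11, S100A13, S100A14 and S100P. Their probe sets were found by the gene symbol of the array platform, which gave 14 probe sets of the 54613 tested. S100A6, S100A8, S100A10 and S100A13 were each read by a pair of probe sets, and the other 6 genes by 1. The RNA came from Ishikawa cells and was hybridised to Affymetrix U133 Plus 2.0 arrays; Ishikawa is an established line from an endometrial adenocarcinoma. The 12 arrays form 4 groups of 3: negative control siRNA with control peptide, negative control siRNA with 10 µM metastin-10, GPR54-specific siRNA with control peptide, and GPR54-specific siRNA with 10 µM metastin-10. Each group carried an siRNA for 48 h and then a peptide for 24 h, so none was left untransfected. The replicates are labelled biological, and nothing in the labels says how the cultures were separated, so p-values measure the spread between these arrays.

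An S100 protein carries a pair of EF-hand motifs, the helix-loop-helix fold that holds a calcium ion, and most members work as dimers. Calcium binding exposes a surface that grips a partner, such as an annexin or non-muscle myosin, and some members are also released and bind cell-surface receptors such as RAGE. In epithelial tumours the family is best known through S100A4, which binds non-muscle myosin and is associated with motility and metastasis. Metastin-10 is the C-terminal part of the KISS1 product that activates the receptor GPR54, encoded by KISS1R, and KISS1 is known as a metastasis suppressor gene.

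All values are RMA values on the log2 scale, so a difference of 1 is a doubling, and a level depends on the probe set as well as on the RNA, so a level set beside the array median says only how bright that probe set was. The targeted gene was checked first. Under control siRNA, KISS1R stood at 9.28 ± 0.13 after control peptide and 8.40 ± 0.04 after metastin-10 (SD, n = 3). Under GPR54 siRNA it stood at 9.42 ± 0.05 after control peptide and 9.43 ± 0.16 after metastin-10. It was not lower with the GPR54 siRNA (0.14 with control peptide, 95% interval -0.07 to 0.35), so the labels could not be checked by it, and those cells are called the arrays labelled GPR54 siRNA. KISS1R instead fell 1.84-fold with metastin-10 under control siRNA (adjusted p = 0.00213 by limma). With metastin-10 in both, it was 2.04-fold higher in the arrays labelled GPR54 siRNA (adjusted p = 0.000391), so its low arrays were those of control siRNA and metastin-10, and every direction below rests on the labels. On the second principal component of all probe sets, which held 21.4% of the variance, the first and second replicates that received control siRNA and metastin-10 scored 42.0 and 29.2, and the other 10 arrays between -19.1 and 10.9. On the first, with 27.7%, the replicate 3 arrays of the 4 groups lay between -36.8 and -17.4 and the others between -14.0 and 26.3.

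S100A4 was the member that passed the test for metastin-10. It fell 1.35-fold under control siRNA, and the other 13 probe sets did not pass the test. Of all 54613 probe sets, 0.428% passed in this comparison. The S100A4 call depended on the fit. It was lost with only the 2 control siRNA groups fitted (adjusted p = 0.123 by limma), and without certain single arrays (up to 0.103). No member passed for the peptide in the arrays labelled GPR54 siRNA, where 0 of all 54613 probe sets passed. Where both groups had metastin-10, S100A4 was 1.50-fold higher in the arrays labelled GPR54 siRNA than with control siRNA, a comparison that uses the same control siRNA, metastin-10 arrays. Of all probe sets 0.579% passed there, and the S100A4 call was lost with those 2 groups fitted alone (adjusted p = 0.0753 by limma).

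S100A4 lies within a run of S100 genes on chromosome 1, where the RefSeq gene table places S100A5 alone between it and S100A6. Of these near neighbours S100A4 passed the test and S100A6 did not, and they were not tested against each other. The brighter S100A6 probe set had the signs of S100A4, at -0.15 with metastin-10 under control siRNA and 0.30 between the siRNA labels with metastin-10. The dimmer one had the opposite signs, at 0.45 and -0.29. S100A6 is therefore not shown to be an unchanged gene. Chosen by the calls alone, the 250 bases upstream of the start of S100A4 and of S100A6 are shown. Both come from the RefSeq promoter table of build GRCh38.p14 and are written 5′ to 3′ on the minus strand, at chr1:153545807-153546056 for S100A4 and chr1:153535992-153536241 for S100A6. Capitals mark matches to the TATA motif TATAAA and to ACGTG or GCGTG, the core letters of the hypoxia response element, each searched on both strands.
S100A4: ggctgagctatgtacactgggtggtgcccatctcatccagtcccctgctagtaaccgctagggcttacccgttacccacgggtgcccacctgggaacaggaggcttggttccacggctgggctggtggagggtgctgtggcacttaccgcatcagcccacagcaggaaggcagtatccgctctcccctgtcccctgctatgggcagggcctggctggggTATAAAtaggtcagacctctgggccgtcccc
S100A6: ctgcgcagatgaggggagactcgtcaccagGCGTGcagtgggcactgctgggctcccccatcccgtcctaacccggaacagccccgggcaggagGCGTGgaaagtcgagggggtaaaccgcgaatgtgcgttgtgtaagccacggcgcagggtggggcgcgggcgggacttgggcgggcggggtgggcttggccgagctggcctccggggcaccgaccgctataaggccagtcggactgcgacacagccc
The S100A4 window held 1 TATAAA, on the gene's strand and beginning 31 bases before the start, and no ACGTG or GCGTG. The S100A6 window held GCGTG at 220 and 156 bases before the start and no TATAAA. Among the 35116 upstream windows of the table, 10.7% held TATAAA, 18.5% ACGTG and 32.2% GCGTG. The 10 genes had 15 such windows, of which 6 held TATAAA, 6 held GCGTG and 0 held ACGTG. S100A4, S100A8, S100A9, S100A13 and S100P had a window with TATAAA. S100A2, S100A6, S100A10, S100A11 and S100A13 had a window with GCGTG. A match describes these letters and is not evidence of binding.

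S100A4 was read by a single probe set, 203186_s_at, so no other could be set beside it. That probe set separated the groups with little spread inside them. After control siRNA and control peptide the arrays read 9.34, 9.40 and 9.37. With control siRNA and metastin-10 they read 8.90, 8.93 and 8.97, below every one of the other 9 arrays. Replicate 3 of that group, which did not stand apart on the second component, was low like the other two. The arrays labelled GPR54 siRNA read 9.41, 9.38 and 9.39 with control peptide and 9.53, 9.51 and 9.51 with metastin-10. The last 3 were the highest of the 12, so the peptide groups did not overlap under either siRNA label.

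Under control siRNA the difference in S100A4 was -0.44 ± 0.07 (log2, SE, 95% interval -0.59 to -0.29, adjusted p = 0.0168 by limma). Between arrays of the same number it was -0.44, -0.48 and -0.40 for replicates 1, 2 and 3. Of the 14 member probe sets 1 fell and 0 rose, while 0.428% of all probe sets passed in this comparison, 0.386% lower and 0.0421% higher. The call was lost when the fit held only these 2 groups (adjusted p = 0.123), with replicates 1 and 2 only (0.0724), and without any single one of control peptide replicates 1, 2 and 3 or metastin-10 replicates 1 and 2 (adjusted p from 0.0615 to 0.103). The difference stayed between -0.42 and -0.46 when single arrays were left out.

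In the arrays labelled GPR54 siRNA, S100A4 was 0.12 higher with metastin-10 (95% interval -0.03 to 0.27, adjusted p = 1 by limma). Same-numbered arrays differed by 0.12, 0.12 and 0.12, and the 3 metastin-10 arrays lay above the 3 control peptide arrays. This difference did not pass. The interaction is the metastin-10 difference in the arrays labelled GPR54 siRNA less the one in control siRNA arrays, and it was 0.56 ± 0.10 (SE, 95% interval 0.35 to 0.77), with an adjusted p of 0.0846 by limma. It passed with replicate 3 as a batch block (adjusted p = 0.0495), with probe sets of mean log2 6 or more (0.00828), with array weights (0.0143) and with an intensity trend (0.0155). It did not pass with the replicate block (0.0729), with another quantile normalization (0.0666), with arrays centred on their median (0.144), with replicates 1 and 2 only (0.206), or without any single array (0.111 to 0.291).

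**Figure D1:**
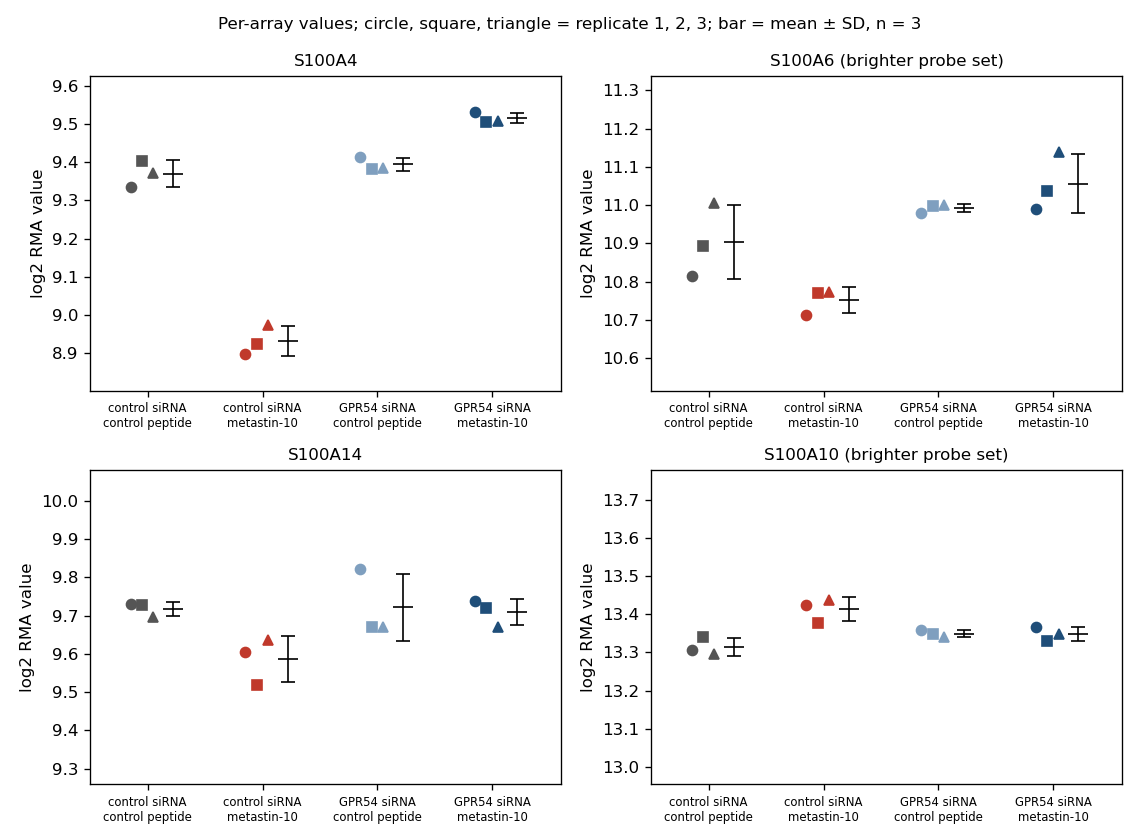
Log2 RMA values (y axis) of S100A4, S100A6, S100A14 and S100A10 in each array, by group (x axis), with circles, squares and triangles for replicates 1, 2 and 3 and bars for the mean ± SD (n = 3); all panels span the same number of log2 units. S100A4 with control siRNA and metastin-10 lies at 8.90 to 8.97, apart from the other 9 arrays at 9.34 to 9.53.

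With metastin-10 present, S100A4 was 0.58 ± 0.07 higher in the arrays labelled GPR54 siRNA (SE, 95% interval 0.43 to 0.73, adjusted p = 0.00195 by limma). The same-numbered differences were 0.63, 0.58 and 0.53, though the numbers were not taken to pair arrays in this comparison. S100A4 was the 1 member called of 14, where 0.527% of all probe sets were called higher and 0.579% in either direction. Leaving out any single array left it called, but fitting these 2 groups alone did not (adjusted p = 0.0753). With control peptide the siRNA labels differed by 0.02 in S100A4 (95% interval -0.13 to 0.17), no larger than the pooled SD of its replicates, 0.03.

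By pattern, 5 genes were closest to S100A4 over the 12 arrays, measured as the root mean square difference between centred log2 values. They were IDH2, a mitochondrial isocitrate dehydrogenase (0.05), KRT19, an epithelial keratin (0.06), FKBP1B, a binding protein of calcium release channels (0.06), FAM110C (0.06) and KDM3A, a histone demethylase (0.06), out of 19774 genes compared. S100A4 itself deviated from its mean by 0.22 on the same measure. With metastin-10 under control siRNA, KRT19 fell (-0.48), as did FKBP1B (-0.44), FAM110C (-0.45) and KDM3A (-0.45), while IDH2 was at -0.36 with an adjusted p of 0.0675 by limma. These genes were chosen for their likeness on the same arrays, so their values are a description.

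S100A6, or calcyclin, is a binding partner of CACYBP and of annexins, and its 2 probe sets did not move together. The brighter one, 217728_at, read 10.81, 10.89 and 11.01 after control siRNA and control peptide, and 10.71, 10.77 and 10.77 with metastin-10. In the arrays labelled GPR54 siRNA it read 10.979, 10.999 and 10.999 with control peptide and 10.99, 11.04 and 11.14 with metastin-10. The control siRNA, metastin-10 arrays were again the lowest, by a narrower gap than in S100A4.

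The brighter S100A6 probe set differed by -0.15 with metastin-10 under control siRNA (95% interval -0.32 to 0.02, adjusted p = 0.522 by limma). Between the siRNA labels with metastin-10 it differed by 0.30 (0.13 to 0.47, adjusted p = 0.153), without passing. This second difference passed with probe sets of mean log2 6 or more (adjusted p = 0.0277), with array weights (0.0355) and with an intensity trend (0.0181). It did not hold for the average of the gene's probe sets, 0.0055 (-0.16 to 0.18, adjusted p = 0.986).

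The dimmer S100A6 probe set, 228923_at, read between 3.08 and 3.89, below the median of all probe sets on every array, which lay between 5.13 and 5.22. It was at 0.45 with metastin-10 under control siRNA (95% interval 0.19 to 0.71, adjusted p = 0.181 by limma), the opposite sign to the brighter one, while between the siRNA labels with metastin-10 it was at -0.29 (-0.56 to -0.03, adjusted p = 0.438), again opposite. Its interaction was -0.58 (-0.96 to -0.21, adjusted p = 0.506). With the 2 probe sets averaged, S100A6 was at 0.15 in the first comparison (-0.02 to 0.32). Detection calls were not used here, so it is unknown whether the dimmer one lies above background.

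S100A14, an epithelial member of the family, also had its lowest arrays in the control siRNA, metastin-10 group. It read 9.73, 9.73 and 9.70 after control siRNA and control peptide, and 9.60, 9.52 and 9.64 with metastin-10. The difference of -0.13 did not pass (95% interval -0.30 to 0.03, adjusted p = 0.573 by limma). The arrays labelled GPR54 siRNA lay between 9.67 and 9.82. Thus S100A4, S100A14 and the brighter S100A6 probe set, 3 of the 14, had all control siRNA, metastin-10 arrays below the other 9, against 3.18% of all probe sets.

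S100A10, or p11, is the partner of annexin A2 on the inner face of the plasma membrane and no longer binds calcium. Its brighter probe set varied least of the 14, within 0.14 over the 12 arrays. The control siRNA, metastin-10 arrays read 13.43, 13.38 and 13.44, above the other 9, which lay between 13.30 and 13.37. It was the 1 member of 14 with this arrangement, which 1.33% of all probe sets had. The difference of 0.10 from control peptide did not pass (95% interval -0.05 to 0.25, adjusted p = 0.636 by limma), and it was 0.07 once arrays were centred on their median.

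S100A11, which binds annexin A1, read between 11.11 and 11.34, and its lowest array was replicate 1 of control siRNA with control peptide. Its difference with metastin-10 under control siRNA was -0.01 (95% interval -0.18 to 0.15). The brighter probe set of S100A13, a protein that takes part in the export of FGF1, read between 10.56 and 10.92 and differed by -0.03 (-0.25 to 0.19). Replicates of S100A13 inside a group spread as widely as the groups did: under control siRNA and control peptide they read 10.62, 10.76 and 10.88. S100A2, a nuclear member found in epithelial cells, read between 9.78 and 10.01 and differed by 0.02 (-0.16 to 0.20). For these 3 genes the intervals leave out a fall as large as that of S100A4.

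S100P, which binds ezrin and RAGE, read between 5.18 and 5.62, close to the array medians. Its difference with metastin-10 was 0.04 under control siRNA (95% interval -0.20 to 0.27) and 0.05 in the arrays labelled GPR54 siRNA (-0.19 to 0.29). The dimmer probe sets of S100A10 and S100A13 read between 4.28 and 4.98 and between 5.41 and 5.73. Neither passed in any comparison, and the S100A10 one had the widest interval of the 14, -0.22 to 0.59 for metastin-10 under control siRNA.

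S100A8 and S100A9 form calprotectin, the abundant calcium-binding complex of neutrophils and monocytes. S100A8 read between 2.74 and 3.13 at 1 probe set and between 2.32 and 3.04 at the other, and S100A9 between 3.54 and 3.98, all far below the array medians. With metastin-10 under control siRNA the 3 probe sets differed by -0.03, 0.06 and 0.10. The highest S100A9 value, 3.98, was replicate 1 of control siRNA with metastin-10, and the other arrays of that group read 3.602 and 3.573, inside the range of the remaining groups.

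**Figure D2:**
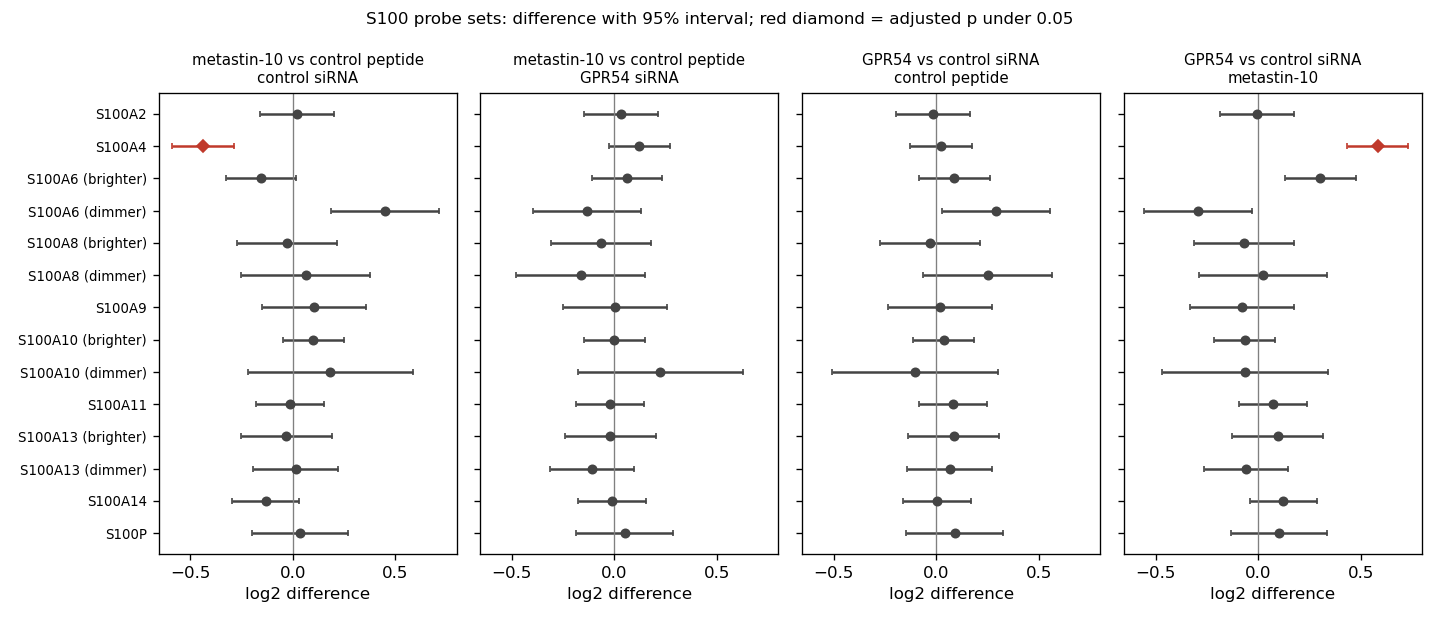
Log2 differences (x axes) with 95% intervals for the 14 probe sets (rows) in the 4 pairwise comparisons; red diamonds passed an adjusted p of 0.05 by limma. S100A4 is the one that passed, at -0.44 with metastin-10 under control siRNA and at 0.58 between the siRNA labels with metastin-10.

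Over the whole set, metastin-10 under control siRNA gave 8 probe sets above 0 and 6 below, with a median of 0.02 against 0.01 over all probe sets. Its 2 groups did not overlap for 5 of the 14, with 3 lower (S100A4, S100A14 and the brighter S100A6) and 2 higher (the brighter S100A10 and the dimmer S100A6). Over all probe sets 16.6% did not overlap, 8.72% lower and 7.91% higher. Besides S100A4, 1 had an unadjusted p under 0.05, the dimmer S100A6 probe set, where 10.6% of all probe sets did. In the arrays labelled GPR54 siRNA, limma called 0 of the 14 for metastin-10 and 0 had an unadjusted p under 0.05, where 0% and 2.21% of all probe sets did. The member differences there ran from -0.16 to 0.22, and S100A4 was the 1 of 14 whose groups did not overlap, where 5.57% of all probe sets did not and 3.01% were higher.

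Between the siRNA labels with control peptide, limma called 0 of the 14, where 0.0531% of all probe sets were called. At an unadjusted p under 0.05 there was 1 member, the dimmer S100A6 probe set at 0.29, where 4.25% of all probe sets passed that mark. The groups did not overlap for 2 of the 14, the dimmer S100A8 and the brighter S100A10, both higher, where 9.76% of all did not and 5.2% were higher. The median was 0.05 against 0.01 over all probe sets. With metastin-10 the labels gave a member median of 0.0084 against -0.0069, and 4 of the 14 were higher without overlap, S100A4, the brighter S100A6, S100A11 and S100A14, against 7.76% of all probe sets. The brighter S100A10 was lower without overlap, as were 5.91% of all, and 13.7% did not overlap in either direction. At an unadjusted p under 0.05 were 3 of the 14, S100A4 and the S100A6 probe sets, of which the brighter was higher and the dimmer lower, where 10.1% of all passed that mark. For the interaction limma called 0 members and 0.0513% of all probe sets; S100A4 and the dimmer S100A6 had an unadjusted p under 0.05, as did 6.09% of all.

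The other S100 genes on the array did not pass in any of the 5 comparisons. Of 11 listed, 10 were measured, and with metastin-10 under control siRNA 7 lay above 0 and 3 below, with a median of 0.09. S100A16, which lies between S100A2 and S100A14, read 11.50 ± 0.02 (SD, n = 3) with control peptide and 11.62 ± 0.01 with metastin-10, a difference of 0.12 (95% interval -0.04 to 0.27). S100A5 was at 0.37 (0.10 to 0.65, adjusted p = 0.309 by limma), opposite in sign to S100A4 beside it, but at a dim level of 5.13. S100A3, on the other side of S100A4, was at -0.14 (-0.36 to 0.07) at a level of 5.28. S100G, or calbindin-D9k, was at 0.24 (adjusted p = 0.405) at a level of 3.83, and its interaction of -0.45 did not pass (adjusted p = 0.509). S100B, the glial member, was at -0.32 between the siRNA labels with metastin-10 (adjusted p = 0.294).

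**Figure D3:**
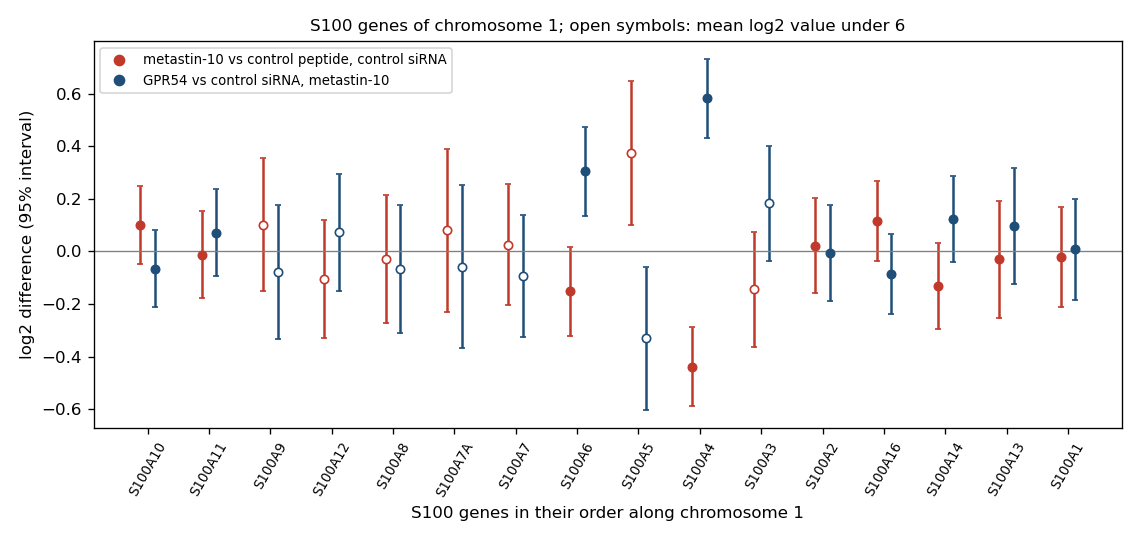
Log2 differences with 95% intervals (y axis) for the S100 genes in their order along chromosome 1 (x axis, not to scale), in red for the metastin-10 difference in control siRNA cells and in blue for the siRNA labels with metastin-10; open symbols have a mean log2 value under 6. S100A4 stands at -0.44 and 0.58 while its neighbours S100A5 and S100A3 are at 0.37 and -0.14 in red; both comparisons share the control siRNA, metastin-10 arrays.

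Genes whose products bind S100 proteins did not pass either. Of 27 listed partners and receptors 26 were measured, and with metastin-10 under control siRNA 15 lay above 0 and 11 below, with a median of 0.05 against 0.0072 over all genes. TLR4, a receptor for calprotectin, had the smallest p of the list, at 0.31 (95% interval 0.07 to 0.56, adjusted p = 0.342 by limma) at a mean level below the array medians. IL1A followed at 0.21 (adjusted p = 0.432), and it was at 0.36 between the siRNA labels with control peptide (adjusted p = 0.362). ANXA6, an annexin, was at 0.27 between the siRNA labels with metastin-10 (adjusted p = 0.351).

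The fused S100 genes, which join an S100 domain to a long repeat of the skin barrier, were dim, with levels from 2.60 to 4.39 for the 5 measured of 7 listed. FLG2 was at 0.42 with metastin-10 under control siRNA (95% interval 0.15 to 0.70, adjusted p = 0.244 by limma), and CRNN at 0.37 between the siRNA labels with control peptide (adjusted p = 0.741). Of 29 other EF-hand genes 26 were measured, with a median of -0.01, and none passed. EFHD1, a mitochondrial calcium sensor, was at -0.38 (-0.58 to -0.18, adjusted p = 0.117) with metastin-10 under control siRNA. It was at 0.41 between the siRNA labels with metastin-10 (adjusted p = 0.0814), which passed with each gene's probe sets averaged (0.0243). NUCB1, a Golgi calcium-binding protein, was at -0.26 and 0.33 in the same comparisons (adjusted p = 0.346 and 0.226).

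**Figure D4:**
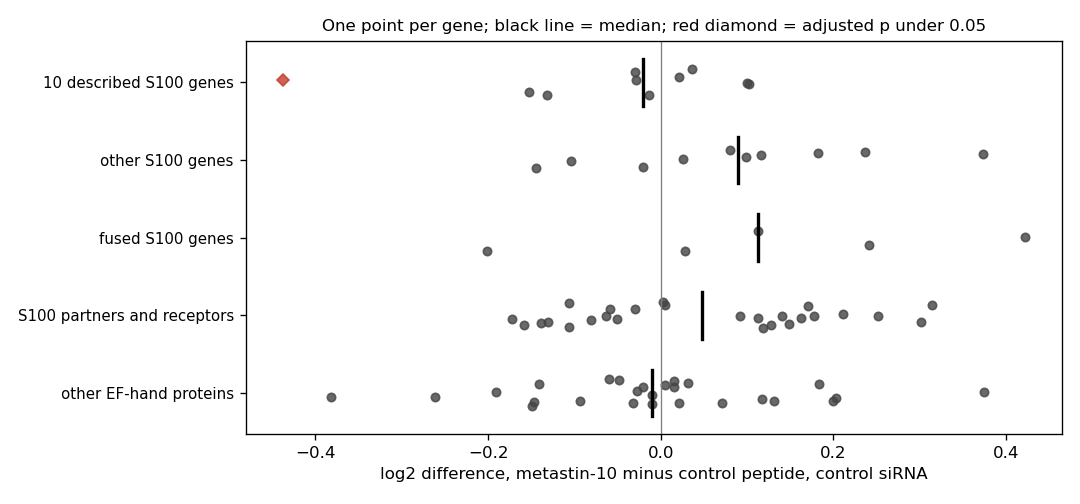
Log2 difference of metastin-10 minus control peptide under control siRNA (x axis) for each gene of 5 lists (rows), with medians as black lines; the red diamond passed an adjusted p of 0.05 by limma. S100A4 at -0.44 is the gene that passed, and the list medians run from -0.02 to 0.11.

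The labelled cell type was checked on markers. All 10 epithelial markers had levels between 7.81 and 13.99, among them EPCAM and KRT18. Their mean lay between 10.918 and 10.997 in the control siRNA, metastin-10 arrays, and between 11.12 and 11.23 in the other 3 groups. KRT19 fell with metastin-10 under control siRNA (-0.48, adjusted p = 0.009 by limma) and MUC1 was at -0.42 (adjusted p = 0.136), so 1 of the 10 passed there. Of the 10, 9 lay below 0, 5 of them with an unadjusted p under 0.05 (KRT19, MUC1, CLDN3, CDH1 and CLDN4), and the median was -0.19, the same sign as S100A4. Over all genes 48.0% lay below 0, with a median of 0.0072. Of all probe sets 10.6% had an unadjusted p under 0.05 there, and 0.428% passed. KRT19 and MUC1 rose between the siRNA labels with metastin-10 (0.59 and 0.57, adjusted p = 0.00165 and 0.0307), with a list median of 0.17. In that comparison 0.527% of all probe sets were called higher. The part of the epithelial markers in the S100A4 result was not tested. In bulk samples, fewer cells of a type and less RNA per cell cannot be told apart.

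The 11 leukocyte markers averaged between 4.19 and 4.56 in all arrays, with the shared leukocyte gene PTPRC at 3.48 and LYZ, lysozyme, at 3.77. The 8 keratinocyte markers included KRT14 at 3.33 and KRT5 at 5.82, with KRT10 alone above 6, at 11.1. Of the 10 stromal markers, LUM was at 2.56 and DCN at 5.18, while COL1A1 was at 9.84. None of these 3 lists had a member that passed in any comparison. With metastin-10 under control siRNA their medians were 0.14, 0.12 and 0.10, against 0.0072 over all genes.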

How the data were processed

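Log2 values of 12 arrays were used as the authors deposited them, per the submitters' processing notes from RMA, in which arrays are quantile normalized and probes of a set summarised; the sources used here name no software version or build. Scanner files were not used here. Array medians were 5.13 to 5.22, and for arrays their number limits the precision: the median half-width of a 95% interval was 0.25.

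The 62 control probe sets were left out. Platform annotation named 41091 probe sets by 1 gene, 1801 by several (not named) and 11721 by none listed. Limma 3.58.1 in R 4.3.3 fitted 4 group means over 12 arrays (8 residual degrees of freedom), with p adjusted by Benjamini-Hochberg over 54613 probe sets and a two-sided threshold of 0.05. The fit was tested on simulated data whose noise was independent between arrays, so likeness of same-numbered arrays was not part of that test. A gene of several probe sets was represented by its brightest.

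The members and lists were chosen with earlier results of these data known. Named were all members, per list and comparison up to 4 called genes or the 2 with the smallest p, KISS1R, and the 5 genes nearest in pattern to a called member. Genes named for their place beside S100A4, or as marker levels, were chosen after their values were seen.

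Deviations of same-numbered arrays correlated at 0.11 to 0.54 for metastin-10 under either siRNA and for the siRNA labels with control peptide, so the numbers were taken to pair arrays there. For the siRNA labels with metastin-10 they correlated at -0.15, 0.26 and 0.07. The main fit held group means alone and did not pair arrays, which the replicate block does. Alternatives were the replicate block, replicate 3 as a batch, the 2 groups alone, single arrays left out, a level filter, array weights, 2 rescalings, a variance trend, gene averages, and, added after seeing the data, replicates 1 and 2 only.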

Additional observations from a re-analysis of the deposited data

Results flagged for a closer look

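The metastin-10 arrays of S100A4 all lay on one side of the control peptide arrays under each siRNA label, on opposite sides. The difference was -0.44 under control siRNA, where all 3 lay below, and 0.12 in the arrays labelled GPR54 siRNA, where all 3 lay above but limma made no call (95% interval -0.03 to 0.27, adjusted p = 1). The test of the difference itself, the interaction of 0.56 ± 0.10 (SE), had an adjusted p of 0.0846 by limma over all probe sets, and from 0.00828 to 0.291 over its alternatives. Groups of 3 are too small for an outlier test.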

How the results depend on the processing

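Every recomputed S100A4 difference for metastin-10 under control siRNA lay between -0.47 and -0.39, and every one for the siRNA labels with metastin-10 between 0.54 and 0.61. With only the groups compared, 0 members passed in either. With replicates 1 and 2 only, 0 passed for metastin-10 under control siRNA and S100A4 passed for the siRNA labels with metastin-10 (adjusted p = 0.0293). Leaving out single arrays gave 0 to 1 member for metastin-10 under control siRNA. For the siRNA labels with metastin-10, 2 passed, S100A4 and the brighter S100A6, with the level filter, array weights and the intensity trend, where calls over all probe sets rose from 316 to 622, 2016 and 480. For the interaction 1 passed, S100A4, with those 3 settings, with gene averages (adjusted p = 0.00906) and when replicate 3 was a batch block; over all probe sets the filter, weights, trend and batch block gave 62, 250, 77 and 73 calls against 28. Why these calls moved was not tested, except that the filter left fewer probe sets, 20897 with 7 members. The replicate block changed no member's call: S100A4 had an adjusted p of 0.0167 and 0.00262 with it, and the interaction 0.0729. Over all probe sets, the block gave 422 calls for metastin-10 under control siRNA against 234, 504 against 316 for the siRNA labels with metastin-10, 51 against 29 with control peptide, 45 against 28 for the interaction, and 0 against 0 in the arrays labelled GPR54 siRNA. The other settings gave 71 to 532, 57 to 2016, 0 to 130, 2 to 250 and 0 calls in the same order. No called value changed sign. Of 1421 recomputed member values, 1398 stayed on their side of the threshold and, where uncalled, within the spread between replicates; 8 uncalled ones moved by more, 8 lost a call and 7 gained one. Dim probe sets limit what can be seen of S100A8 and S100A9, while S100P read close to the array medians.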
